A study of Mus musculus with 8 samples.

Results

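Collagens outside the basement membrane were taken as every gene symbol of the form Col, number, a, number, apart from the Col4a genes. The rule found 38 genes with 47 RefSeq transcripts among 24346 symbols. They were read in 8 RNA libraries labelled as mouse uterine epithelium, on a mixed C57BL/6/129S6/SvEv background. The 3 control libraries carry no further genotype in the labels. The 5 others, called cKO, came from Smad2flox/flox;Smad3flox/flox;Pgr-cre mice, in which Cre made from the progesterone receptor locus removes floxed parts of Smad2 and Smad3. Pgr-cre acts wherever that locus is on, by the labels after birth and also in ovary, oviduct, mammary gland and pituitary, and they do not limit it to epithelium. No age, cycle stage, treatment or isolation method could be taken from the labels. Whether libraries stand for separate animals is likewise unstated. The p-values therefore set the difference between groups against the spread between libraries, which may be technical in part.

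Collagens are triple helices of 3 chains. Types I, III and V assemble into the fibrils of connective tissue, type VI forms beaded filaments around cells, and fibril-associated types decorate fibril surfaces. In the uterus these are made mainly by stromal fibroblasts and smooth muscle, whereas types VII and XVII belong to epithelia and tie them to the basement membrane. SMAD2 and SMAD3 carry TGF-beta signals into the nucleus, and fibrillar collagen genes are textbook targets of that pathway in fibroblasts.

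Values are FPKM, fragments mapped to a transcript relative to its length and to the depth of the library, summed per gene and scaled between libraries. They are per length and can be compared between genes. Of the targeted genes, Smad2 was 5.69, 6.35 and 6.18 in controls 1 to 3 against 3.79, 3.03, 4.02, 3.63 and 3.41 in cKO 1 to 5. Smad3 was 27.4, 31.5 and 25.6 against 42.6, 36.4, 29.6, 24.0 and 20.6. Smad2 was lower in every cKO library and Smad3 overlapped. These values cover whole transcripts and do not single out the floxed exons, so for Smad3 they do not check the label. Epithelial markers were high in all 8 libraries, with 10 of 10 listed genes above the filter and summed levels of 5343 to 5820 scaled FPKM in control and 4353 to 7250 in cKO. Collagen genes were low beside them. Control 1 and cKO 3 stood apart from the other libraries of their groups, with the most collagen. Smooth muscle markers were highest in control 1 and lowest in cKO 2.

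The 38 genes together made up 207, 116 and 76.3 scaled FPKM in controls 1 to 3, against 55.8, 89.8, 188, 61.2 and 55.98 in cKO 1 to 5. The groups overlapped, since cKO 3 exceeded controls 2 and 3. The control mean was 1.48 times the cKO mean, 133 ± 67.2 (SD, n = 3) against 90.2 ± 56.5 (SD, n = 5). The ratio was 2.03 without cKO 3 and 1.07 without control 1. In all, collagens took 0.0120% to 0.0545% of the FPKM of a library. In bulk RNA, fewer stromal cells and less collagen RNA per stromal cell cannot be told apart.

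Only 5 genes held most of this RNA. Col1a1, Col1a2, Col3a1, Col6a1 and Col6a2 accounted for 75.9% to 82.2% of it in control and 55.8% to 78.1% in cKO. The share of Col16a1 was larger in every cKO library, at 2.73% to 3.61% in control and 4.45% to 23.7% in cKO, with cKO 3 the lowest of the cKO libraries.

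**Figure D1:**
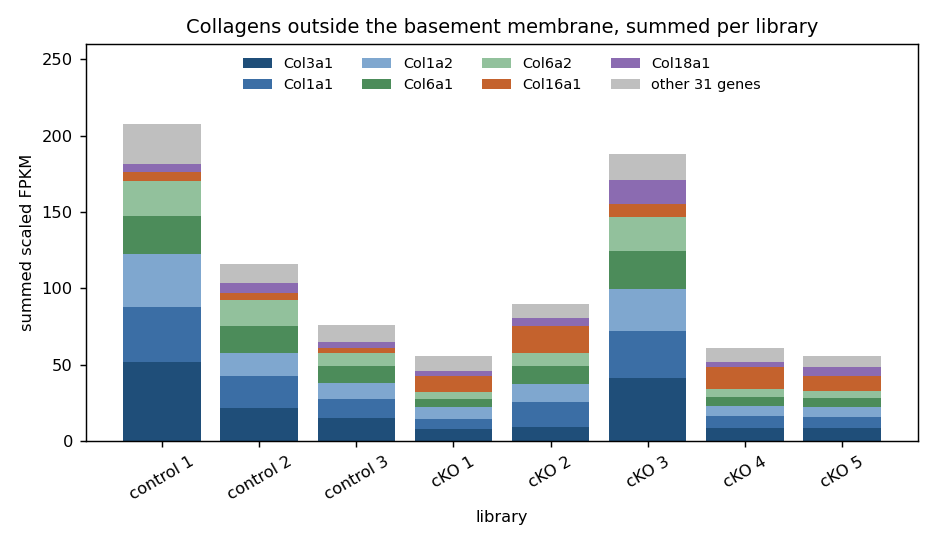
Summed scaled FPKM of the collagens outside the basement membrane (vertical axis) in each of 8 libraries (horizontal axis), with the 7 most abundant genes in colour and the rest in grey. Control 1 (207) and cKO 3 (188) are the tallest bars, and the orange Col16a1 segment is taller in cKO libraries, 8.36 to 17.7, than in controls, 2.75 to 5.66.

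A total of 12 members reached 1 scaled FPKM in at least 3 libraries and were tested: 5 fibrillar, 4 of type VI, the fibril-associated Col16a1, Col18a1 and Col17a1. By limma with Benjamini-Hochberg adjustment over 11316 genes, 1 of the 12 was higher in cKO and 0 were lower. Of all tested genes 14.3% were called, 7.27% higher and 6.98% lower. At an unadjusted p below 0.05 the count was also 1 of 12, where 31.5% of all tested genes were below it. The median log2 fold change of the 12, cKO minus control on the log2(scaled FPKM + 1) scale, was -0.49 with 10 of 12 negative, against -0.0050 over all tested genes. Of the other 26 genes, 11 were low, reaching 0.1 in at least 3 libraries, and 15 did not reach that. Since a gene can pass the filter through the group where it is higher, the 12 do not stand for all 38.

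Among fibrillar chains, Col3a1 was the most abundant. It encodes the single chain of type III collagen, the fibril of extensible tissues (chromosome 1, 45311538 to 45349706, mm10). Its level in scaled FPKM was 51.5, 21.7 and 15.1 in controls 1 to 3 against 8.04, 8.96, 41.0, 8.56 and 8.71 in cKO 1 to 5. All controls lay above 4 of the cKO libraries, while cKO 3 lay above 2 of the controls. The means were 29.4 ± 19.4 (SD, n = 3) and 15.1 ± 14.5 (SD, n = 5), and the log2 fold change of -1.06 ± 0.57 (SE) did not pass (limma adjusted p = 0.232). Without cKO 3 it was -1.48 ± 0.35 and passed (limma adjusted p = 0.0262). Without control 1, the other high library, it was -0.57 ± 0.59 and did not pass (limma adjusted p = 0.553). Without both control 1 and cKO 3, a choice made after seeing the data, it was -0.999 ± 0.15 (limma adjusted p = 0.0104).

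Type I collagen, the main fibril of connective tissue, is built from the products of Col1a1 (chromosome 11, 94936270 to 94951856) and Col1a2 (chromosome 6, 4505697 to 4541543). Col1a1 stood at 36.2, 20.7 and 12.5 scaled FPKM in controls 1 to 3 against 6.53, 16.8, 30.8, 7.72 and 6.99 in cKO 1 to 5. Col1a2 stood at 34.6, 14.9 and 10.7 against 7.63, 11.7, 27.9, 6.78 and 6.91. In both genes cKO 3 was second only to control 1, and cKO 2 lay above control 3. The chains kept close to each other, with Col1a1 at 0.856 to 1.43 times the Col1a2 level in every library. Neither gene passed, at log2 fold changes of -0.83 ± 0.52 and -0.72 ± 0.49 (limma adjusted p = 0.300 and 0.345), nor did either without cKO 3 (limma adjusted p = 0.0799 and 0.0829). Without control 1 the log2 fold changes were -0.46 ± 0.57 and -0.26 ± 0.49 (limma adjusted p = 0.624 and 0.762).

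Type V chains, which sit inside type I fibrils and set their width, were an order lower. Col5a2 was 4.78, 1.91 and 1.85 scaled FPKM in controls 1 to 3 against 0.719, 1.64, 3.74, 1.19 and 1.13 in cKO 1 to 5. Its level stayed between 0.0921 and 0.161 times that of Col1a1 in all 8 libraries. Col5a1 went from 1.501 ± 0.794 (SD, n = 3) to 0.848 ± 0.668 (SD, n = 5), and Col5a3, for the remaining type V chain, ranged from 0.211 to 1.41. The log2 fold changes of Col5a1 and Col5a2 were -0.45 ± 0.29 and -0.53 ± 0.35 and did not pass (limma adjusted p = 0.317 and 0.327). The other fibrillar genes were at most 0.386 scaled FPKM. These were Col11a1, Col11a2, Col24a1, Col27a1 and the cartilage collagen gene Col2a1, which was listed at 0 in every library.

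**Figure D2:**
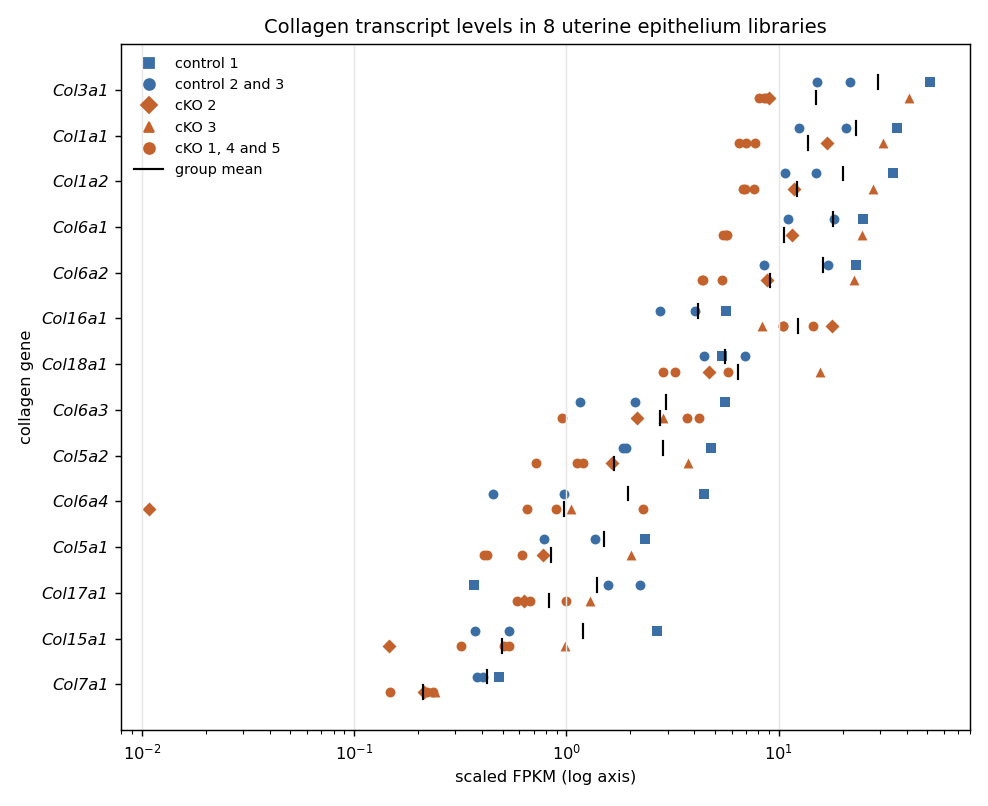
Scaled FPKM (horizontal log axis) of the 12 tested collagens, Col15a1 and Col7a1 (rows) in each control (blue) and cKO (orange) library, with short lines at group means. In most fibrillar and type VI rows control 1 and cKO 3 are farthest right, whereas in Col16a1 all cKO points (8.36 to 17.7) lie right of all controls (2.75 to 5.66) and in Col7a1 all lie left.

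Type VI collagen, the beaded filament that lies next to cells, needs the products of Col6a1 (chromosome 10, 76708792 to 76726044), Col6a2 (chromosome 10, 76595756 to 76623404) and a further, longer chain such as that of Col6a3. Col6a1 was 25.1, 18.2 and 11.0 scaled FPKM in controls 1 to 3 against 5.65, 11.6, 24.8, 5.73 and 5.45 in cKO 1 to 5. Col6a2 was 23.1, 17.1 and 8.54 against 4.34, 8.77, 22.5, 5.403 and 4.42. The 5 highest libraries were the same, in the same order, as for Col1a1 and Col1a2, and their ratio stayed between 1.06 and 1.32. They did not pass, at log2 fold changes of -0.88 ± 0.48 and -0.93 ± 0.51 (limma adjusted p = 0.236 and 0.240). Without cKO 3 both were lower in cKO, by -1.23 ± 0.32 and -1.30 ± 0.33 (limma adjusted p = 0.0357 and 0.0353). Without control 1 neither passed, at -0.62 ± 0.55 and -0.64 ± 0.58 (limma adjusted p = 0.487 and 0.500).

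The other type VI chains did not keep this order. Col6a3 (chromosome 1, 90766860 to 90843971) was 5.59, 2.10 and 1.16 scaled FPKM in controls 1 to 3 against 4.199, 2.14, 2.85, 3.70 and 0.952 in cKO 1 to 5. Relative to Col6a1 it stood at 0.743 in cKO 1 and 0.644 in cKO 4, where the other 6 libraries lay between 0.105 and 0.223. In cKO 4, 1.21 of its 3.70 was assigned to the transcript NM_001243008, listed at 0 in 4 of the 8 libraries and at most 0.373 in the rest. How Cufflinks splits fragments between such models carries an error not shown here. Col6a4 ranged more widely than the other tested members, at 4.43, 0.453 and 0.976 in controls 1 to 3 against 2.29, 0.0108, 1.05, 0.650 and 0.893 in cKO 1 to 5. Neither passed, at log2 fold changes of 0.014 ± 0.41 and -0.44 ± 0.47 (limma adjusted p = 0.984 and 0.550). Col6a5 and Col6a6 stayed at or under 0.279.

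Of the 12 tested members, 7 had control 1 and cKO 3 as their highest 2 libraries, as had 2.08% of all 11316 tested genes. Control 1 was the highest control for 10 of 12 members and 39.0% of all tested genes, and cKO 3 the highest cKO library for 9 of 12 and 25.7%.

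Col16a1 was the 1 member called. It encodes a fibril-associated collagen made by fibroblasts, smooth muscle and keratinocytes (chromosome 4, 130047840 to 130099277). Its level in scaled FPKM was 5.66, 4.03 and 2.75 in controls 1 to 3 against 10.5, 17.7, 8.36, 14.5 and 10.4 in cKO 1 to 5. Every cKO library lay above every control, as for 11.7% of all tested genes. The mean rose from 4.15 ± 1.46 (SD, n = 3) to 12.3 ± 3.76 (SD, n = 5), which is 2.97-fold. On the log2(scaled FPKM + 1) scale the rise was 1.37 ± 0.25 (limma adjusted p = 0.0108). An estimated 826 to 4503 fragments per library lay behind these values. Within the controls it followed the other collagens, highest in control 1, while among cKO libraries it was lowest in cKO 3, where all 5 tested fibrillar chains were highest. Its level relative to Col1a1 was 0.156 to 0.221 in control, 0.271 in cKO 3 and 1.05 to 1.88 in the other 4 cKO libraries. The log2 fold change stayed between 1.16 and 1.69 over 21 alternatives. It passed also without cKO 1 and cKO 2, whose sample titles come from another number series (1.24 ± 0.26, limma adjusted p = 0.0348). The call was lost without control 2 (limma adjusted p = 0.0546), without control 3 (limma adjusted p = 0.0567) and with fibroblast and muscle marker level as a covariate (1.28 ± 0.31, limma adjusted p = 0.0524).

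**Figure D3:**
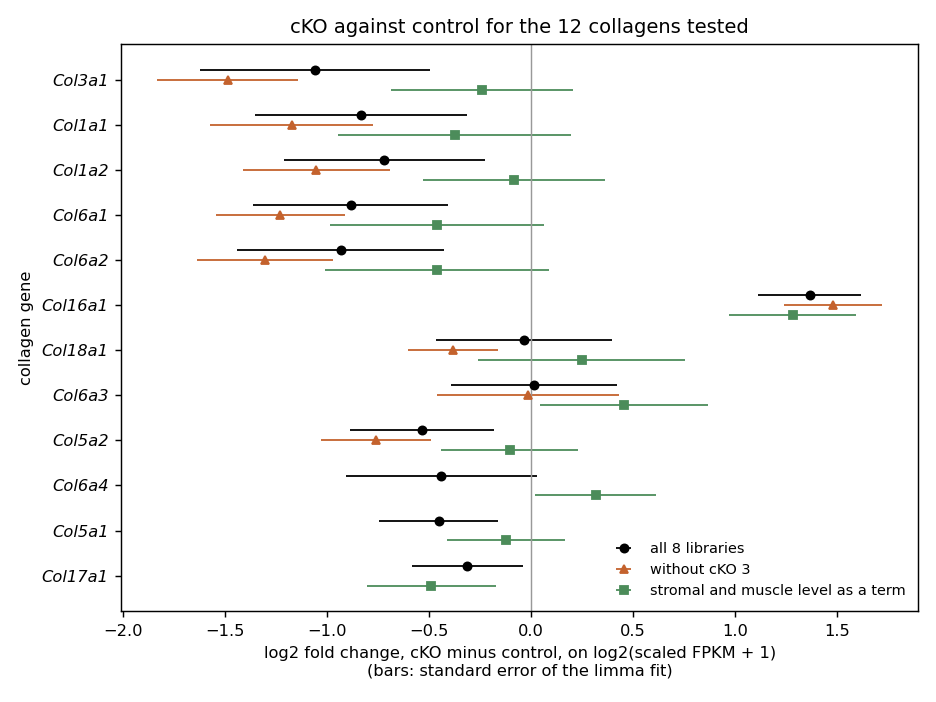
Log2 fold change, cKO minus control (horizontal axis, bars are the standard error of the limma fit), of the 12 tested collagens in 3 fits. Col16a1 is the 1 gene far right of 0 in each fit (1.37, 1.48 and 1.28), and the black values of Col3a1 (-1.06), Col6a1 (-0.88) and Col6a2 (-0.93) move toward 0 when the stromal and muscle marker level is a term.

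Start-site sequences are shown for the member that rose, Col16a1, for 2 abundant members that were highest in control 1 and cKO 3, Col3a1 and Col6a1, and for Col7a1, described further on. Each is the 250 bases before the start in RefSeq on GRCm38.p6, 5′ to 3′ on the gene's strand. Capitals mark matches on either strand to 6 motifs. TATAAA is the TATA-type motif. CCAAT is the box bound by NF-Y, which reads ATTGG on the other strand. GGGCGG is the GC box bound by SP1. SMAD3 and SMAD4 can bind CAGAC, which reads GTCTG on the other strand. GGCGCC can be bound by the same factors. The AP-1 site is TGACTCA. The windows are chr4:130047590-130047839 (plus strand), chr1:45311288-45311537 (plus), chr10:76726045-76726294 (minus) and chr9:108953336-108953585 (plus). For Col7a1 the deposited transcript starts 159 bases further downstream.
Col16a1: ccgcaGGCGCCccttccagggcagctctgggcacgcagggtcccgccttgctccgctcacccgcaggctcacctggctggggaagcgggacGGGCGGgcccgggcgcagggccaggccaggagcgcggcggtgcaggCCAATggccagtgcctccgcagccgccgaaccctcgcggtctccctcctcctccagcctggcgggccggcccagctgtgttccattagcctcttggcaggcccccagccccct
Col3a1: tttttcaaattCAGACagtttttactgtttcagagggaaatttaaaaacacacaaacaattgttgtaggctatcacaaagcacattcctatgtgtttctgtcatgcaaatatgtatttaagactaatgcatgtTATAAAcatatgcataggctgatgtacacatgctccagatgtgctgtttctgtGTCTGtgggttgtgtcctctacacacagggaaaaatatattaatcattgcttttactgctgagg
Col6a1: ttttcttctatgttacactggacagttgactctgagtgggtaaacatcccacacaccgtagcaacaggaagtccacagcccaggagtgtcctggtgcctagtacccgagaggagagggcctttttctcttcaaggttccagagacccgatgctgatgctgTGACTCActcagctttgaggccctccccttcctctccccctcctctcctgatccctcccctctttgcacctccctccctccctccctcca
Col7a1: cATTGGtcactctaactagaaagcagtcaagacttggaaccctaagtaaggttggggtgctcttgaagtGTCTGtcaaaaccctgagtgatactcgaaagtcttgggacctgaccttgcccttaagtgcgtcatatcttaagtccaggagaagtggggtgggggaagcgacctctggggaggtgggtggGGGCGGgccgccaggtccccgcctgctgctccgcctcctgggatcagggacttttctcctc
No matches overlapped in these 4 windows. The Col16a1 window was rich in G and C (75.6%) and held 1 GGCGCC, 1 GGGCGG and 1 CCAAT, at 245, 159 and 113 bases before the start, and no CAGAC. The Col3a1 window had 35.2% G and C, with CAGAC at 239 and 64 bases and TATAAA at 117 bases before the start. Col6a1 held 1 TGACTCA, at 90 bases. Col7a1 held 1 CCAAT at 249 bases, 1 CAGAC at 181 bases and 1 GGGCGG at 61 bases before the start. Over all 32851 windows in the RefSeq table, CAGAC was present in 42.2%, CCAAT in 33.8%, GGGCGG in 32.7%, TATAAA in 12.4%, GGCGCC in 9.59% and TGACTCA in 4.46%. A window was listed for 30 of the 38 members. Of these, 16 held CAGAC, 10 CCAAT, 18 GGGCGG, 5 TATAAA, 2 (Col16a1 and Col5a1) GGCGCC and 1 TGACTCA. A member was counted if any of its windows held the motif, and Col18a1, Col6a2 and Col9a1 have more than 1. These counts are therefore not on the same basis as the shares over windows. A match is a run of letters, not a bound site.

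The epithelial collagens were set apart. Col17a1 encodes a transmembrane collagen of hemidesmosomes, the plaques that anchor basal epithelial cells (chromosome 19, 47646341 to 47692042). It was 0.366, 1.58 and 2.23 scaled FPKM in controls 1 to 3 against 0.670, 0.628, 1.29, 0.584 and 0.991 in cKO 1 to 5. Control 1, the highest library for 9 of the other 11 tested collagens, was the lowest of all 8 here, at 0.192 times the mean of controls 2 and 3. The log2 fold change of -0.31 ± 0.27 did not pass (limma adjusted p = 0.455).

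Col7a1, the chain of the anchoring fibrils that fasten epithelium to stroma (chromosome 9, 108953745 to 108984875), was below the filter. It stood at 0.481, 0.379 and 0.407 scaled FPKM in controls 1 to 3 against 0.222, 0.213, 0.241, 0.148 and 0.235 in cKO 1 to 5. All 5 cKO libraries lay below all 3 controls, with a mean of 0.212 ± 0.0372 (SD, n = 5) against 0.422 ± 0.0532 (SD, n = 3), a ratio of 1.99. It was the 1 member below all controls among 23 members at 0.1 or more in 3 libraries, where 12.4% of 14086 such genes showed this. An estimated 71 to 211 fragments lay behind each value, and the deposited 95% intervals reached up to 0.290 in cKO 3 and down to 0.323 in control 2. Under TPM Col7a1 passed the filter and was not called. In the fit without a filter its log2 fold change was -0.23 (limma adjusted p = 0.0110). That is on the log2(scaled FPKM + 1) scale, where the added 1 shrinks changes at low levels. Neither cKO 3 nor control 1 stood apart from its group here, at 1.18 and 1.23 times the mean of the other libraries. Col23a1, a transmembrane collagen, was at most 0.0723.

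Types XV and XVIII, which carry sugar chains and lie at the outer face of basement membranes, are the multiplexins. Col18a1, the source of endostatin (chromosome 10, 77052179 to 77166530), was 5.39, 6.95 and 4.46 scaled FPKM in controls 1 to 3 against 2.84, 4.67, 15.7, 3.25 and 5.78 in cKO 1 to 5. In cKO 3 it was 3.79 times the mean of the other cKO libraries, while control 1 was near the other controls at 0.946 times their mean. All of the cKO 3 value was assigned to the transcript NM_009929. The log2 fold change was -0.035 ± 0.43 (limma adjusted p = 0.964), and its sign changed in 8 of 21 alternatives. Col15a1, a marker of vessel and muscle basement membranes, was below the filter, at 2.67, 0.373 and 0.536 in controls 1 to 3 against 0.318, 0.145, 0.990, 0.506 and 0.537 in cKO 1 to 5. Control 1 was 5.87 times the mean of the other controls, and cKO 2 was the lowest library.

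Of the remaining low genes, Col14a1 and Col12a1, which bind fibril surfaces in stroma, reached 0.971 and 0.319 scaled FPKM. In cKO 3 Col14a1 was at 5.33 times the mean of the other cKO libraries, and Col8a2, a network-forming collagen, at 6.22 times. Col20a1 and Col9a3 stayed at or under 0.729. The other genes, among them Col8a1, Col10a1, Col13a1, Col19a1, Col22a1, Col25a1, Col26a1 and Col28a1, stayed at or under 0.193, and Col19a1 was listed at 0 in all.

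As a measure of stromal RNA, the 5 abundant genes were set beside marker lists that hold no collagen. The fibroblast list, 15 genes of which 8 passed the filter, summed to 210 to 323 scaled FPKM in control and 140 to 241 in cKO. Fbln1, which made up 32.8% to 73.1% of that sum and ran from 79.2 in cKO 3 to 167 in control 1, was left out after its values were seen. Without it the list gave 156, 133 and 84.1 in controls 1 to 3 against 49.6, 93.0, 162, 37.7 and 55.0 in cKO 1 to 5. The 5 collagens stood at 0.591 to 1.09 times this sum, against 0.212 to 0.610 times the full sum. Control 1, cKO 3 and control 2 were the highest 3 libraries for the collagens and for the sum without Fbln1, of which Dcn and Vim made up 62.6% to 82.8%. Taken singly, 3 of the 15 markers, Vim, Dcn and Thy1, had these same 3 libraries highest. Control 2 was among the lowest 3 libraries for 6 of 15, Pdgfra, Pdgfrb, Twist2, Fbln1, Dpt and Cxcl12, and cKO 2 was the lowest for 6. The fibroblast receptor gene Pdgfra, for example, was 1.60 in control 1, 0.210 in control 2, 0.803 in cKO 1 and 0.0648 in cKO 2. The proteoglycan gene Dcn, the most abundant of the remaining fibroblast markers on average, ran from 14.4 in cKO 4 to 82.5 in cKO 3. Dpt and Mfap4 were listed at 0 in cKO 2. By limma 1 of the 8 tested fibroblast markers was lower and 0 higher, against 6.98% and 7.27% of all tested genes. All 8 had negative log2 fold changes (median -0.58). The called marker, Nr2f2, was 9.08, 9.26 and 7.29 in controls 1 to 3 against 5.48, 5.02, 6.63, 5.36 and 4.87 in cKO 1 to 5 (limma adjusted p = 0.0175). Every cKO library, cKO 3 included, lay below every control for it, as for 12.9% of all tested genes.

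Smooth muscle markers ordered the libraries differently. The 10 genes, 8 above the filter, summed to 347, 61.3 and 99.95 scaled FPKM in controls 1 to 3 against 108, 18.0, 118, 57.6 and 60.0 in cKO 1 to 5. None was at 0, but in cKO 2 the myosin gene Myh11 was at 0.0276 and Actg2 at 0.155, against 2.73 and 7.01 in control 2. There the 5 collagens stood at 3.21 times the muscle sum, where the other 7 libraries lay between 0.297 and 1.51. Within the collagens, cKO 2 had 0.532 times as much Col3a1 as Col1a1, where the others had 1.05 to 1.42 times as much. It was also the library with the lowest Col6a4 and Col15a1. The 8 tested muscle markers had 0 calls by limma in either direction, where 7.27% of all tested genes were higher and 6.98% lower. At an unadjusted p below 0.05 there were 0 of the 8, against 31.5% of all tested genes. Their median log2 fold change was -1.003.

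**Figure D4:**
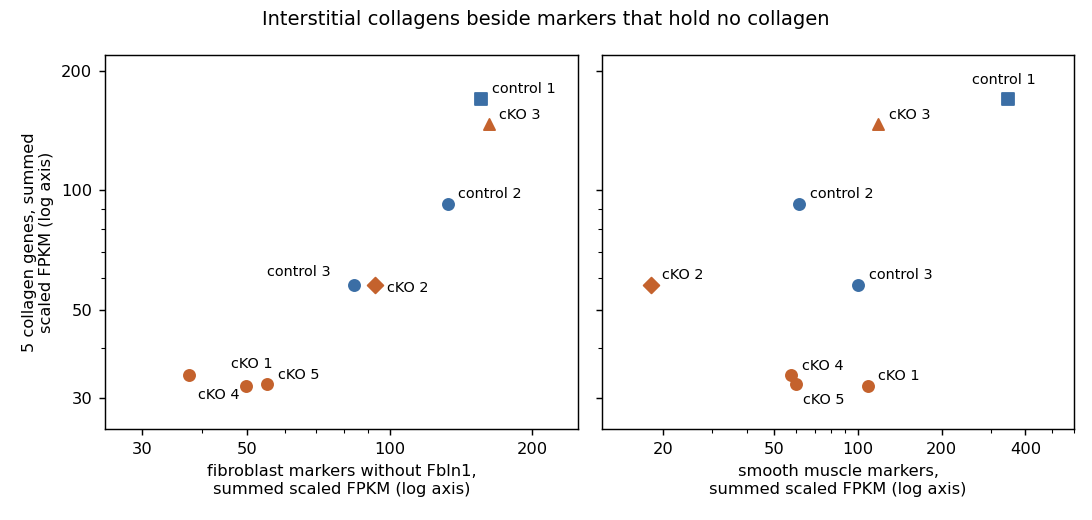
Summed scaled FPKM of Col1a1, Col1a2, Col3a1, Col6a1 and Col6a2 (vertical log axis) against the sums of fibroblast markers without Fbln1 (left) and smooth muscle markers (right, log axes), 1 point per library. On the left, control 1 (170) and cKO 3 (147) are high on both axes, and on the right cKO 2 (57.9) has the least muscle, 18.0.

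Markers of other cell types were read in the same way. Mesothelial markers, 4 of 4 above the filter, summed to 12.8 to 31.4 scaled FPKM in control and 2.19 to 47.4 in cKO, highest in cKO 3, control 2 and cKO 2. Endothelial markers summed to 6.10 to 10.4 in control and 4.08 to 8.21 in cKO, with 4 of 9 above the filter. Schwann cell and nerve markers, with 0 of 4 above the filter, summed to 2.27 to 2.51 and 0.520 to 0.888. Leukocyte markers, with 5 of 8 above the filter, summed to 322 to 488 and 332 to 1916. The genes S100a8 and S100a9 made up 62.1% to 96.5% of that sum. The leukocyte gene Ptprc was 2.02 ± 0.702 (SD, n = 3) in control and 5.97 ± 3.07 (SD, n = 5) in cKO (limma adjusted p = 0.0615). The macrophage gene Cd68 was 101 ± 18.9 (SD, n = 3) in control and 68.5 ± 19.6 (SD, n = 5) in cKO, and Csf1r 2.13 ± 0.663 and 2.29 ± 1.08. By limma 0 of 4 mesothelial, 0 of 4 endothelial, 0 of 5 leukocyte and 0 of 10 epithelial genes tested were called, against 14.3% of all tested genes. At an unadjusted p below 0.05 were 0, 0, 4 and 1 of them, against 31.5% of all tested genes. With the mean level of the fibroblast and muscle lists as a term, the log2 fold changes of Col1a1, Col1a2, Col3a1, Col6a1 and Col6a2 were -0.37, -0.08, -0.24, -0.46 and -0.46. In that fit 0 of 12 collagens were called, where of all 11316 tested genes only 391 were higher and 322 lower. The part of stromal carry-over in the collagen levels was not tested beyond these values.

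Procollagen is hydroxylated, folded and secreted, then trimmed outside the cell. Of 14 genes for trimming and cross-linking, 7 were tested, 1 higher and 1 lower in cKO, with a median log2 fold change of -0.38. Among all tested genes 7.27% were higher and 6.98% lower. Bmp1, the proteinase that removes the C-terminal propeptide of fibrillar procollagens, was 6.79, 3.15 and 3.68 scaled FPKM in controls 1 to 3 against 16.5, 12.4, 11.98, 23.6 and 18.6 in cKO 1 to 5. It rose by 1.68 ± 0.26 on the log2 scale (limma adjusted p = 0.00530). Adamts2, which removes the N-terminal propeptide, was 4.41, 2.75 and 4.28 in controls and 0.443, 0.705, 1.27, 0.739 and 0.508 in cKO. It fell by 1.47 ± 0.19 on the log2(scaled FPKM + 1) scale (limma adjusted p = 0.00240), where the added 1 shrinks changes at low levels. In both the groups did not overlap. All cKO libraries were higher for Bmp1, as for 11.7% of all tested genes, and lower for Adamts2, as for 12.9%. Both calls held in every alternative that tested them, 21 for Bmp1 and 19 for Adamts2.

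Of 20 genes for modification, folding and export, 15 were tested, 1 higher and 3 lower, against 7.27% and 6.98% of all tested genes. The 15 had a median log2 fold change of -0.18, with 9 of 15 at an unadjusted p below 0.05, against 31.5% of all tested genes. The galactosyltransferase gene Colgalt1 went from 45.8 ± 10.9 (SD, n = 3) to 26.3 ± 2.23 (SD, n = 5; limma adjusted p = 0.0118), and its call held in all 21 alternatives. Creb3l1, a transcription factor for collagen secretion genes, went from 50.2 ± 10.9 to 26.5 ± 4.54 (limma adjusted p = 0.0136). P3h4, part of a lysyl hydroxylation complex, fell by 0.56 ± 0.15 and the lysyl hydroxylase gene Plod3 rose by 0.55 ± 0.15 on the log2 scale (limma adjusted p = 0.0411 and 0.0381). P3h4 lost its call in 12 of 21 alternatives and Plod3 in 14. Creb3l1 lost it in 2, without control 2 or control 3. The collagen-specific chaperone gene Serpinh1 was likewise highest in control 1 and cKO 3, at 18.3, 17.0 and 7.74 in controls 1 to 3 against 4.92, 12.9, 25.6, 6.78 and 5.09 in cKO 1 to 5 (limma adjusted p = 0.510). It is named after its values were seen.

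Of 10 collagen receptor genes, 4 were tested, 2 higher and 1 lower, where 7.27% of all tested genes were higher and 6.98% lower. The receptor tyrosine kinase gene Ddr1, typical of epithelia, went from 61.8 ± 14.3 to 105 ± 17.2 scaled FPKM (limma adjusted p = 0.0238). Ddr2, its counterpart in mesenchyme, was 8.70, 10.0 and 10.4 in controls 1 to 3 against 3.29, 2.65, 8.90, 3.16 and 3.63 in cKO 1 to 5 (limma adjusted p = 0.0385), with cKO 3 again apart from the other cKO libraries. The integrin chain gene Itgb1 went from 83.9 ± 7.99 to 123 ± 17.3 (limma adjusted p = 0.0346). These calls were lost in 6, 11 and 11 of 21 alternatives. Of 16 fibril partner genes, 9 were tested and 1, the proteoglycan gene Prelp, was lower, from 2.02 ± 0.894 to 0.797 ± 0.237 (limma adjusted p = 0.0432, lost in 8 of 16 alternatives). All 9 had negative log2 fold changes, with a median of -0.70. Of the basement membrane collagens left out by the rule, 3 of 6 were tested and 0 called. At an unadjusted p below 0.05 there were 0 of the 3, against 31.5% of all tested genes. Col4a1 was 7.82 ± 4.53 against 4.54 ± 1.801 and Col4a5 4.35 ± 0.997 against 3.47 ± 1.13 (limma adjusted p = 0.250 and 0.428).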

How the data were processed

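RNA of 3 control and 5 cKO libraries was analysed as deposited. Per the labels' protocols, cDNA was primed with random and poly-dT primers and sequenced on an Illumina instrument. TopHat, Cufflinks, mm10 and bcl2fastq 1.8.3 are named in the submitters' processing notes. TopHat and Cufflinks versions, annotation and strand use were not given in the sources. The authors deposited FPKM with a 95% interval for 34535 transcripts, and a coverage signal that was read from no file here. No counts were given. Depth, estimated from interval widths, was 42.9 to 53.9 M mapped fragments, and that error covers counting only.

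FPKM was summed per symbol and scaled by median-of-ratios factors of 0.924 to 1.06. Leaving out 15 genes with a status other than OK (no member), genes reaching 1 in 3 or more libraries entered limma 3.58.1 (R 4.3.3, two-sided, trended variance), fitted to log2 of scaled FPKM plus 1. Calls were made below a Benjamini-Hochberg adjusted p of 0.05. The code was tested on simulated data. Coordinates are 1-based. Members, lists and tests were chosen with earlier results of these data known. Named were the 6 most abundant members, called members, epithelial collagens, Col15a1, Col18a1, heterotrimer partners, up to 4 called genes or the 2 most abundant of each pathway list, and up to 4 abundant markers of each cell type list; Col5a1, Col5a2, Col6a4, Col14a1 and other low members, and Serpinh1, Myh11 and single fibroblast and leukocyte markers, were added after their values were seen. Leaving out control 1 and cKO 3 together was added after seeing the data. Other alternatives were other scalings, pseudocount, filters, status, variance models, left-out libraries, the title number series (cKO 1 and cKO 2 differ from the other 6) and marker level as terms.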

Additional observations from a re-analysis of the deposited data

Results flagged for a closer look

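Among the 5 cKO libraries, 47 measures were examined for 1 library far from the rest, by the gap to its nearest neighbour as a share of the whole range, and 13 exceeded the 95% critical value of 0.71. Chance flags about 1 in 20 such groups when values are normally distributed. Scaled FPKM and ratios were used without logs, so the rate here can differ. The measures were chosen with earlier results of these data known and are not independent, since collagens move together. In 10 of the 13 the library was cKO 3, at the high end. The gap share was 0.972 for Col3a1, 0.895 for Col14a1, 0.843 for the receptor gene Ddr2, 0.772 for Col5a1, 0.771 for Col18a1, 0.764 for Col1a2, 0.756 for Col6a2 and 0.718 for Col6a6. Col6a6 was a low gene, at 0.218 scaled FPKM in cKO 3 and 0.016, 0.071, 0.013 and 0.025 in cKO 1, 2, 4 and 5. For the sum of the 5 abundant collagens the gap share was 0.776, and for that of all 38 it was 0.743. The share of Col16a1 in all collagen RNA was lowest in cKO 3, with a gap of 0.736. The ratio of Col3a1 to Col1a1 was lowest in cKO 2, with a gap of 0.721, and the low gene Col11a2 was highest there, with a gap of 0.747.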

How the results depend on the processing

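The number of genes called, 1613 with all libraries, ranged from 420 to 1828 when each library was left out in turn, with 1015, 424 and 420 without controls 1, 2 and 3. It was 3527 with array weights and 713 with fibroblast and muscle marker level as a covariate. Under TPM the median log2 fold change over tested genes went from -0.0050 to -0.20 and the share of calls that were higher from 51.0% to 23.5%. The number of collagens called, 1 of 12 with all libraries, ranged from 0 to 4 when each was left out. It was 0 of 10 without control 2 and 0 of 11 without control 3. Without cKO 3 it was 4 of 9, when Col3a1, Col6a1 and Col6a2 joined Col16a1, beside 1828 of all 11167 genes tested. It was 2 of 36 without a filter, where Col7a1 joined, beside 1468 of all 18132 genes tested. Under TPM it was 1 of 19, with Col7a1 tested and not called. It was 0 of 12 with fibroblast and muscle marker level as a covariate, and 2 of 9 without control 1 and cKO 3 together, where Col3a1 joined. Log2 fold changes kept their sign in every alternative that tested them for Col1a1, Col1a2, Col3a1, Col5a1, Col5a2, Col6a1, Col6a2, Col16a1 and Col17a1. That of Col18a1 (-0.035) was 0.012 with quantile normalization, 0.26 without cKO 1 and cKO 2 and with the title series as a term, 0.25 with that covariate, and between -0.38 and 0.15 with 1 library left out. That of Col6a3 (0.014) was -0.025 without scaling, -0.14 with TPM, -0.11 without cKO 1 and cKO 2 and with the title series, and between -0.34 and 0.46 with 1 library left out. That of Col6a4 was 0.32 with that covariate. The causes were not tested. The ratio of control to cKO collagen sums was 1.07 to 2.03 with 1 library left out. No paired analysis was possible because the labels carry no replicate numbers and tie no control library to a cKO library. Members under 0.1 scaled FPKM rest on few fragments and are not compared.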
